A study of Mus musculus with 16 samples.

Results

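The comparison described here is between 2 cultures of wild-type CD8+ T cells that differed in the cytokine added after activation. Of the 16 RNA-seq libraries of the series, 8 were used, chosen by their labelled genotype (wildtype) and cell type (EFFECTOR or MEMORY). OT-I cells carry a transgenic T cell receptor that recognises a peptide of chicken ovalbumin (OVA). They were taken from the spleen of male and female mice aged 8 to 12 weeks, activated with OVA peptide for 3 days and then kept for 4 days with IL-2 to give effector cells (TE, 4 libraries, numbered 1 to 4) or with IL-15 to give memory cells (TM, 4 libraries, numbered 9 to 12). All 8 libraries therefore share the receptor transgene and the activation step. Both groups are culture models, named for the state that the added cytokine is used to induce. The other 8 libraries are of cells from TPdh-/- mice, in which CD4-cre removes a floxed Pdha1 gene. They entered the filter on low counts, the scaling of libraries and the estimate of the spread, but not the comparison itself. Whether the wild-type mice carried floxed alleles or Cre was not stated in the sources used here. The RNA-seq was described as made from 5 mice a condition, while 4 libraries a group were analysed here. No label ties a library to its own mouse or culture, so the p-values below measure the spread between these libraries, part of which may be technical.

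IL-2 and IL-15 signal through the same pair of chains, CD122 (Il2rb) and the common gamma chain (Il2rg), which activate JAK1, JAK3 and STAT5. They differ in their private alpha chains, CD25 (Il2ra) for IL-2 and IL-15Ra (Il15ra) for IL-15. In CD8+ T cells sustained IL-2 is known to drive growth, glycolysis and cytolytic proteins, and IL-15 is known to sustain survival and slow turnover with less growth. Memory T cells are usually recognised by lymph node homing receptors and by transcription factors such as TCF1, and effector cells by granzymes, Blimp-1 and T-bet.

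Expression is given as CPM, that is counts relative to the library's TMM-adjusted total, for each library in numerical order (TE 1 to 4, then TM 9 to 12). Differences are on the log2 scale as TM minus TE, so that a negative value is lower in TM. A gene was called where edgeR's quasi-likelihood test gave a Benjamini-Hochberg adjusted p under 0.05 over all 15277 tested genes. The 8 libraries held 53007257 to 67294571 expected counts each. The groups separated on the first principal component, which held 79.1% of the variance, and correlations of log2 CPM were at least 0.989 within a group and at most 0.958 between groups. TM library 12 stood apart from the other TM libraries: its chi-square per degree of freedom against TM 9 to 11 was 53.7 to 70.3, while the other pairs within a group gave 8.11 to 15.9, and its median fragment length was 297 bases against 304 to 310 bases in the other 7. Without TM 12, 10481 genes were called, against 10479 with it, and 9901 genes were called in both fits. Leaving out any other single library gave 9972 to 10247 calls.

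Genes of the labelled cell type were present in both groups. The β-chain segment of the OT-I receptor, Trbv12-1, took a mean of 99.2% of all Trbv counts in TE and 99.5% in TM, and the α-chain segment Trav14 took 57.7% and 58.1% of all Trav counts. Summed markers of CD8 T cells came to 5308 to 6110 TPM (a level that allows for transcript length) in TE and to 6142 to 6562 TPM in TM, so the groups did not overlap. The list did not move as a whole: of its 9 members only Cd8a and Cd8b1, the chains of CD8, were higher in TM, and 4 were lower (2 where libraries were scaled by their totals alone), among them Trac, the constant segment of the receptor α chain (-0.45), and Cd2, an adhesion receptor (-0.36). Cd8a was measured at 788, 768, 738 and 702 CPM in TE and 1617, 1765, 1629 and 1532 CPM in TM. Every TM library was above every TE library, and the log2 difference was 1.13 (SE 0.06). Markers of other cells were present at lower summed levels, and their part in the differences below was not tested. Summed markers of γδ T cells came to 94.0 to 106 TPM in TE and 56.99 to 67.3 TPM in TM, fully apart, although Trdc, the constant segment of the δ chain, was higher in TM, with means of 106 CPM in TE and 139 CPM in TM. Summed markers of regulatory T cells came to 13.3 to 14.3 TPM in TE and 7.13 to 11.5 TPM in TM, fully apart. Of the 3 members 2 were lower in TM, among them Ikzf2 (Helios), with means of 44.9 and 34.6 CPM. Without TE 1, Ikzf2 was not called (edgeR adjusted p = 0.0504). Foxp3 was not called (0.92), although every TM library lay above every TE library for it. Summed NK cell markers came to 6.47 to 8.52 TPM in TE and 5.54 to 8.82 TPM in TM, but of the 8 members 3 were higher in TM and 4 lower. Summed B cell markers, nearly all of it Ighm, came to 380 to 412 TPM in TE and 346 to 437 TPM in TM. Markers of monocytes came to 276 to 346 TPM in TE and 18.6 to 31.6 TPM in TM. Ccr2, a gene that T cells also express, made up a mean of 295 TPM of this in TE and 20.4 TPM in TM. Of 17 such sums and shares, 0 passed an exact permutation test (two-sided) after adjustment. With 4 against 4 libraries that test cannot give an unadjusted p below 0.0286, and the lowest adjusted p among the 17 was 0.061. Since these are bulk libraries, fewer cells of a type and less RNA per cell cannot be told apart.

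The 2 cultures differed across most of the transcriptome. Of 15277 tested genes 10479 were called (68.6%), 5243 higher in TM (34.3%) and 5236 lower (34.3%). An unadjusted p under 0.05 was reached by 71.0% of genes. Large differences fell more often on the side of TE with the scaling used here. By more than 1 on the log2 scale, 1441 genes were higher in TM (9.43%) and 1722 lower (11.3%). By more than 2, 275 genes were higher (1.8%) and 760 lower (4.97%). Where libraries were scaled by their totals alone, 1675 genes were higher by more than 1 and 1573 lower, the opposite order. All 4 TM libraries lay above all 4 TE libraries for 31.7% of the tested genes and below them for 32.2%. With about 1 gene in 3 called in each direction, a count within a list of genes is read below against these shares.

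**Figure D1:**
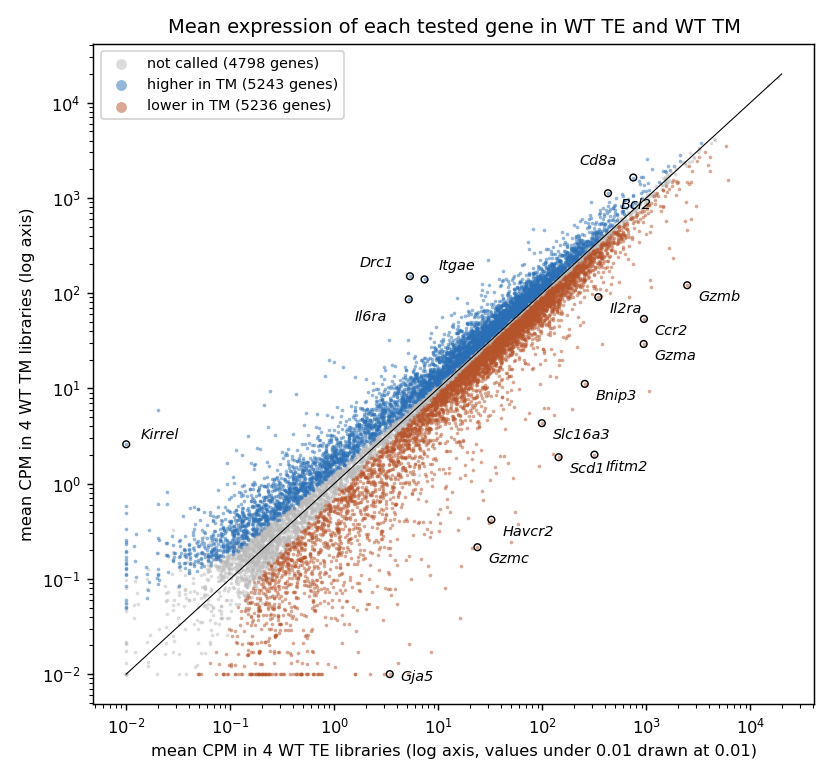
Mean CPM of each tested gene in the 4 TE libraries (x, log axis) and the 4 TM libraries (y, log axis), 1 point a gene, with blue for the 5243 genes called higher in TM, brown for the 5236 called lower and grey for the rest. Genes far below the diagonal, such as Gzmc, Havcr2 and Gja5, reach further from it than most genes above it.

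The receptor chains of the 2 cytokines moved in opposite directions. Il2ra, the high-affinity alpha chain of the IL-2 receptor, was lower in TM, with 327, 341, 353 and 359 CPM in TE and 77.8, 87.8, 102 and 96.7 CPM in TM. Il15ra, the chain that binds and presents IL-15, was higher, with 11.7, 11.4, 11.5 and 11.4 CPM in TE and 20.7, 20.6, 19.2 and 18.4 CPM in TM. The genes lie in GRCm38 (GENCODE M21) at chr2:11642807-11693193 (plus strand) for Il2ra and chr2:11705290-11734317 (plus strand) for Il15ra, both protein-coding. Neither gene had overlapping groups, and the log2 differences were -1.92 (SE 0.09) for Il2ra and 0.78 (SE 0.04) for Il15ra. Of the chains that both cytokines use, Il2rb was lower at -0.82 and Il2rg higher at 0.37. Il7r, the receptor of the survival cytokine IL-7, was measured at 129, 99.9, 159 and 110.0 CPM in TE and 171, 215, 221 and 194 CPM in TM, a log2 difference of 0.69. That call was lost when any of TE 2, TE 4 or TM 11 was left out, with edgeR adjusted p of 0.071, 0.061 and 0.054.

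Among all cytokine receptors, 12 of 23 tested members were higher in TM and 10 lower, with a median log2 difference of 0.20. The 2 chains of the IL-6 receptor led the higher members. Il6ra, which binds IL-6, stood at 4.36, 4.61, 6.26 and 5.56 CPM in TE and 81.3, 103, 76.6 and 83.4 CPM in TM, which is 16.6-fold higher in TM. Il6st, the gp130 chain that signals for IL-6 and its relatives, was 2.696-fold higher and Il27ra, the IL-27 receptor, 2.04-fold higher. In the other direction, the differences in Il1rl1 and Il12rb2 exceeded that of Il2ra. Il1rl1 (ST2), the receptor of the alarmin IL-33, had 6.64, 8.64, 7.40 and 10.8 CPM in TE and 0.250, 0.370, 0.274 and 0.200 CPM in TM. Il12rb2, the signalling chain for IL-12, was lower at -2.31 and Il18r1, for IL-18, at -1.68. IL-6 receptor chains were thus higher in TM, and receptor chains for IL-33, IL-12 and IL-18 higher in TE.

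Downstream of these receptors the counts lay closer to the background: in the list of JAK, STAT and feedback genes 4 of 18 tested members were higher in TM and 7 lower, with a median log2 difference of -0.09. Cish, a STAT5-induced inhibitor of cytokine signalling, was 2.02-fold higher in TM, and Socs3, which restrains signalling through gp130, was 1.78-fold higher. The kinase gene Pim1 was higher (0.69) while its relative Pim2 was lower (-0.56). Socs2 was lower (-0.50) and Socs1 was not called (-0.02). The STAT5-responsive genes of the list therefore did not share a direction. Jak3, the kinase bound to the common gamma chain, was lower (-0.88), Stat5a higher (0.46), and Jak1 and Stat5b were not called, with log2 differences of 0.04 and 0.03.

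Granzymes, the serine proteases that cytolytic cells deliver into their targets, were among the genes with the largest differences. In the list of granzymes and cytolysis genes, 3 of 24 tested members were higher in TM and 17 lower, with a median log2 difference of -1.20. Gzmb, the main granzyme of activated CD8+ T cells, at chr14:56258838-56262260 (minus strand) in GRCm38, was measured at 2425, 2599, 2325 and 2531 CPM in TE and 104, 58.9, 148 and 173 CPM in TM. Gzma, a tryptase, was at 898, 926, 967 and 982 CPM in TE and 25.8, 12.1, 50.9 and 28.2 CPM in TM. In both, every TE library exceeded every TM library by a wide margin, and the fitted difference was 20.4-fold for Gzmb and 32.2-fold for Gzma (edgeR quasi-likelihood test, Benjamini-Hochberg adjusted p = 7.3e-09 and 3.6e-09). Gzmc, at 25.9, 19.8, 26.9 and 22.6 CPM in TE and 0.172, 0.148, 0.257 and 0.284 CPM in TM, and Gzmk, at 36.4, 35.3, 29.0 and 42.0 CPM in TE and 0.967, 0.944, 1.85 and 1.45 CPM in TM, followed the same pattern. Gzme had 176 counts over the TE libraries and 0 over TM, at least 53.2-fold higher in TE (a floor of 3 counts over the group was used). Gzmd had 250 counts in TE and 3 in TM, a ratio of 75.6 with a 95% counting interval of 25.6 to 369. Without TM 9 the fitted log2 difference of Gzmd went from -6.11 to -7.02. Gzmd to Gzmg are near-identical copies whose reads may have been shared among them.

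The rest of the cytolytic machinery moved less. Prf1, perforin, which forms the pore granzymes pass through, had 16.9, 16.9, 18.5 and 18.9 CPM in TE and 13.9, 12.2, 13.3 and 17.8 CPM in TM. The libraries overlapped, since TM 12 lay within the TE range, and the log2 difference was -0.32 (SE 0.13). Without TM 10 or TM 11 the edgeR adjusted p was 0.077 or 0.052, and Prf1 was no longer called. Gzmm, a granzyme held by resting cytolytic cells, was not called (-0.24), nor were Unc13d, which primes granules for release (-0.02), Cst7 (-0.03) and Lamp1 (0.08). Unc13d was called without TM 12 (edgeR adjusted p = 0.049). Fasl, the death receptor ligand, was lower, at 59.8, 61.1, 54.9 and 64.4 CPM in TE and 8.66, 8.57, 11.8 and 10.7 CPM in TM. Lyst, the lysosomal trafficking regulator mutated in Chediak-Higashi syndrome, Tnfsf10 (TRAIL) and Ctsw (cathepsin W) were the 3 members higher in TM, by 1.11, 0.70 and 0.66.

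**Figure D2:**
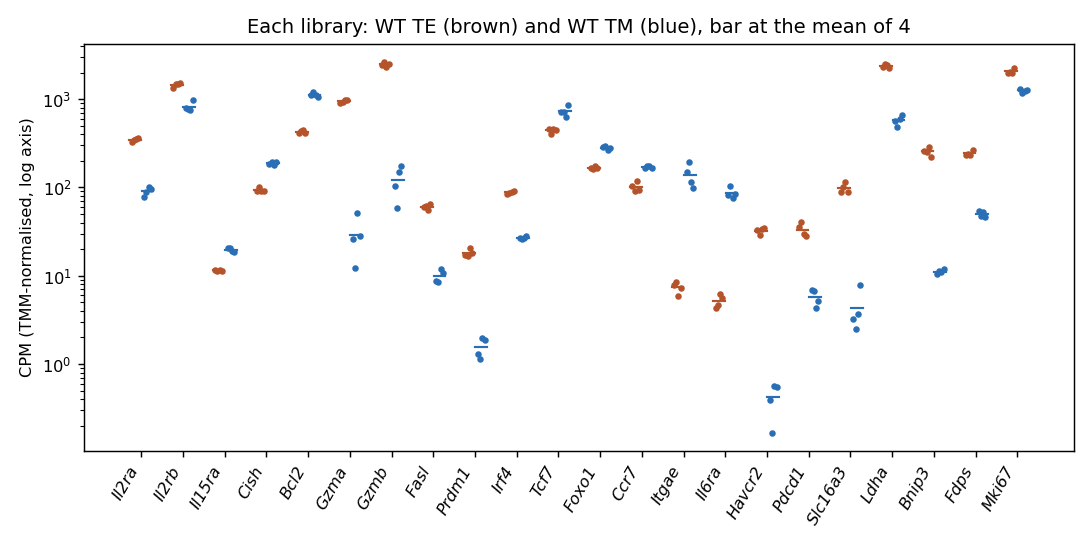
CPM (log axis) of 22 genes in each WT TE (brown) and WT TM (blue) library, 1 point a library and a bar at the mean of 4. The granzymes Gzma and Gzmb and the checkpoint gene Havcr2 lie far lower in all 4 TM libraries, while Itgae, Il6ra and Bcl2 lie above all 4 TE libraries.

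Lists of transcription factors known from memory and from effector cells were described separately. Of the list linked to memory, 10 of 14 tested members were higher in TM and 2 lower, with a median log2 difference of 0.43. Tcf7, which encodes TCF1, had 457, 398, 463 and 447 CPM in TE and 707, 712, 630.1 and 847 CPM in TM, and Foxo1, which maintains homing and survival genes, had 166, 159.9, 175 and 167 CPM in TE and 284, 296, 263 and 276 CPM in TM. In both genes all 4 TM libraries were the higher, at 1.64-fold and 1.68-fold. Lef1, a partner of TCF1, was higher by 0.53 on the log2 scale, Bach2, a repressor of effector genes, by 0.72, Klf2, which drives lymph node homing, by 0.54, and Bcl11b, a T cell identity factor, by 1.02. The called members lower in TM were Bcl6 (-1.22) and Eomes (-0.93), the T-box factor often assigned to memory. Of the list of effector factors, 2 of 17 tested members were higher in TM and 14 lower, with a median log2 difference of -1.38. Prdm1, encoding the repressor Blimp-1, had 17.0, 16.8, 20.7 and 18.3 CPM in TE and 1.31, 1.15, 1.97 and 1.87 CPM in TM, and Irf4, which follows receptor and cytokine signal strength, had 84.7, 87.0, 89.4 and 90.9 CPM in TE and 26.5, 26.4, 27.0 and 28.4 CPM in TM. Neither overlapped between groups. Maf was lower at -4.70, Nfil3 at -3.54, Irf8 at -2.19, Batf at -1.64 and Id2 at -1.38. Tbx21, T-bet, was lower to a smaller extent (-0.34). Zeb2 and Myc were the exceptions, both higher in TM. Zeb2, a factor of terminal effector differentiation, had 0.547, 0.714, 0.671 and 0.433 CPM in TE and 1.26, 1.57, 1.68 and 1.58 CPM in TM, and Myc, the growth regulator, had 44.9, 45.2, 50.7 and 46.8 CPM in TE and 93.8, 89.6, 76.8 and 126 CPM in TM. TM libraries were thus above TE for both, and the log2 differences were 1.36 (SE 0.18) and 1.04 (SE 0.15).

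Surface and survival genes of memory cells gave a mixed picture with most members higher: 9 of 15 tested members were higher in TM and 3 lower, with a median log2 difference of 0.57. Bcl2, which blocks mitochondrial apoptosis, lies at chr1:106538178-106714274 (minus strand) in GRCm38 and had 413, 435, 447 and 417 CPM in TE and 1119, 1198, 1118 and 1045 CPM in TM. The libraries of the groups did not overlap, and expression was 2.62-fold higher in TM. Ccr7, the lymph node chemokine receptor, was higher by 0.75, S1pr1, which lets cells leave the node, by 0.57, and Slamf6 by 0.56. Dapl1 was higher by 1.89. Itgae (CD103), the integrin of cells resident in epithelia, had the largest difference of the list, 7.92, 8.41, 5.94 and 7.22 CPM in TE and 151, 192, 116 and 98.6 CPM in TM. Its lowest TM library was far above its highest TE library. Cd44, the receptor that marks antigen-experienced cells, was lower in TM at 215, 202, 235 and 238 CPM in TE and 99.7, 90.2, 105 and 112 CPM in TM. Cd28, the main costimulatory receptor, was lower at -1.34 and Ly6c2 at -1.21, while Cd27 (0.10) and Cxcr3 (-0.10) were not called. Markers named for memory thus lay on both sides.

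Across homing, egress and adhesion genes, 9 of 28 tested members were higher in TM and 13 lower, with a median log2 difference of -0.14. Ccr2, a receptor for inflammatory chemokines, was at 867, 948, 917 and 1062 CPM in TE and 49.8, 33.2, 69.6 and 61.8 CPM in TM, the most negative difference of the list. Gpr183, which guides cells to oxysterols, was lower at -2.80 and Cxcr4 at -1.84. Itga4, the α4 integrin, was higher by 2.15 and Cxcr5, the receptor for the B cell follicle, by 1.48. Ccr2 is also listed as a monocyte marker, and of the 7 tested markers of that list 3 were higher in TM and 2 lower (1 higher with the 8 WT libraries alone, with a minimum mean of 1 CPM, or without TE 3 or TE 4). Cd68, a lysosomal protein of macrophages, was lower like Ccr2, with means of 7.24 CPM in TE and 2.07 CPM in TM. Lyz2, lysozyme, had means of 1.24 and 2.35 CPM, and Adgre1 and Csf1r had means of at most 0.200 CPM in either group. The part of monocytes in the value of Ccr2 was not tested.

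Most inhibitory receptors were lower in TM: 3 of 16 tested members were higher in TM and 13 lower, with a median log2 difference of -1.87. Havcr2 (TIM-3) had 32.7, 28.7, 33.5 and 34.7 CPM in TE and 0.390, 0.167, 0.565 and 0.550 CPM in TM. Pdcd1 (PD-1) had 35.2, 40.5, 29.3 and 28.2 CPM in TE and 6.80, 6.74, 4.31 and 5.15 CPM in TM. Groups were fully apart for both, 76.4-fold and 5.79-fold higher in TE. Cd244a (2B4) was lower at -3.92, Entpd1 (CD39), which degrades extracellular ATP, at -3.07, Tigit at -2.55, Lag3 at -2.31 and Ctla4 at -1.87. Cd200, Btla and Vsir (VISTA) were the 3 members higher in TM. Cd200, the ligand of an inhibitory receptor on myeloid cells, had 3.03, 2.71, 2.57 and 2.15 CPM in TE and 10.04, 10.5, 10.3 and 8.44 CPM in TM, and Btla, a receptor for HVEM, had 41.9, 42.2, 41.9 and 43.4 CPM in TE and 87.4, 90.5, 88.2 and 88.2 CPM in TM. HVEM itself, Tnfrsf14, was also higher in TM (0.94). The call of Vsir was lost without TE 2, TE 4 or TM 12 (edgeR adjusted p = 0.052, 0.063 and 0.091).

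Costimulatory molecules were also lower more often than higher, and 4 of 20 tested members were higher in TM and 13 lower, with a median log2 difference of -0.50. Tnfrsf9 (4-1BB), a receptor induced on activation, had 125, 138, 129 and 129.9 CPM in TE and 4.85, 5.11, 5.60 and 5.64 CPM in TM, and Tnfrsf8 (CD30) had 2.97, 2.35, 3.37 and 3.05 CPM in TE and 0.0468, 0, 0.0342 and 0.0667 CPM in TM. TE libraries exceeded TM libraries throughout. Tnfsf11 (RANKL) was lower in TM at -2.85, while its receptor Tnfrsf11a (RANK) was among the genes with the largest increases over all genes, at 0.141, 0.244, 0.0639 and 0.139 CPM in TE and 3.98, 4.68, 1.99 and 1.99 CPM in TM. Tnfrsf25 (DR3) was 3.89-fold higher and Tnfsf8, the ligand of CD30, 3.20-fold higher. In 2 ligand and receptor pairs, RANKL with RANK and CD30 ligand with CD30, the partners therefore moved in opposite directions. Tnfrsf4 (OX40) was not called (-0.29).

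Effector surface and secreted genes were mostly lower, and 2 of 20 tested members were higher in TM and 13 lower, with a median log2 difference of -1.55, or 1 higher when TE 2, TE 3, TE 4, TM 9, TM 11 or TM 12 was left out. Among secreted cytokines and chemokines, 6 of 21 tested members were higher in TM and 10 lower, with a median log2 difference of -0.39. Csf2 (GM-CSF) had 1.33, 0.763, 1.29 and 1.14 CPM in TE and 0.218, 0.148, 0.0685 and 0.1001 CPM in TM, Ccl4 was lower at -1.67 and Spp1 (osteopontin) at -3.13. Each was lower in every TM library. On the higher side Tnf had 13.9, 13.4, 13.3 and 16.8 CPM in TE and 29.4, 27.5, 26.1 and 32.1 CPM in TM, Osm (oncostatin M) was 2.93-fold higher, Flt3l 3.04-fold and Xcl1, which attracts cross-presenting dendritic cells, 2.25-fold. Ifng, the main effector cytokine, was not called, with 3.68 ± 0.402 CPM in TE and 4.68 ± 1.004 CPM in TM (SD, n = 4). The immediate-early genes that receptor engagement induces were higher in 8 of 16 tested members, led by Fosb (2.25), Egr2 (0.88), Jun (0.85) and Egr3 (0.83), with 2 lower; Nr4a1, a reporter gene of receptor signalling, was not called (0.02).

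Genes of natural killer receptors lay on both sides: 9 of 25 tested members were higher in TM and 12 lower, with a median log2 difference of -0.93. By more than 1 on the log2 scale, 7 members were higher and 11 lower, and the differences ranged from -5.12 to 6.57. With a minimum mean of 1 CPM, 2 of the 13 tested were higher and 11 lower, so most higher members were at low levels. The activating receptor gene Klrk1 (NKG2D) had 214, 237, 224 and 194 CPM in TE and 31.2, 23.9, 27.8 and 25.7 CPM in TM, and Klrd1 (CD94), the partner of NKG2A, C and E, was lower at -2.16. All 4 TE libraries were above all TM libraries. Klrc2 was lower at -2.28 and Klra5 (Ly49E) at -5.12. Cd7, an immunoglobulin superfamily receptor of T and NK cells, was 2.39-fold higher, and Hcst (DAP10), the adaptor that carries the signal of NKG2D, was higher by 0.52 although the receptor was lower. For Hcst the libraries of the groups overlapped. TM 11 was the highest TM library for 13 of the 25 members. Klrg1, the marker of terminal effector cells, was not called (-0.94). The Klra genes are near-identical copies, and their counts are uncertain for that reason. Of the T cell receptor complex and its proximal signalling, 7 of 28 tested members were higher in TM and 11 lower, with a median log2 difference of -0.07. Cd8a, given above, was the only member that differed by more than 1 on the log2 scale, Cd8b1 was higher by 0.72, and Zap70, the kinase recruited to the CD3 chains, was lower at -0.78.

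Genes of DNA replication and mitosis were lower in TM, mostly by less than 1 on the log2 scale. Of the DNA replication list, 0 of 43 tested members were higher in TM and 41 lower, with a median log2 difference of -0.69; of the mitosis list, 0 of 40 tested members were higher in TM and 40 lower, with a median log2 difference of -0.82. The count of 0 higher in these lists was also 0 at an unadjusted p under 0.05, by DESeq2 and by limma. Mki67, which encodes the proliferation antigen Ki-67, had 1993, 2025, 1997 and 2277 CPM in TE and 1311, 1186, 1251 and 1272 CPM in TM. Aurka, the kinase of the spindle poles, had 96.0, 95.8, 96.0 and 102 CPM in TE and 40.0, 36.5, 39.3 and 37.9 CPM in TM, and Tk1, thymidine kinase, had 120.3, 134, 117 and 133 CPM in TE and 57.5, 50.9, 54.3 and 48.4 CPM in TM. The TM libraries were lower in all 3, and the largest of these differences was 2.54-fold. Ccnb1 (cyclin B1) was lower at -1.22, Hmmr at -1.19, Gins1, of the replicative helicase, at -1.28 and Cdt1, which licenses origins, at -1.11. The 4 TM libraries differed among themselves: for 32 of 40 mitosis genes TM 9 was the highest, and for 23 TM 12 was the lowest, while TE 4 was the highest TE library for 35 of 40. Replication-dependent histone genes, whose mRNAs lack a poly(A) tail and are captured poorly by the poly(A) selection used, had 18 of 20 members lower and 2 higher (median -2.68). Hist1h1b, a linker histone, had 0.765, 0.893, 1.77 and 1.35 CPM in TE and 0.0624, 0.0185, 0.120 and 0 CPM in TM, and its log2 difference went from -4.51 to -5.32 without TM 11.

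Of the cyclins, kinases and E2F factors of the G1 phase, 2 of 14 tested members were higher in TM and 9 lower, with a median log2 difference of -0.21. The 2 higher members act early in G1. Ccnd2 (cyclin D2) had 297, 297, 278 and 288 CPM in TE and 650.5, 654, 651 and 704 CPM in TM, and Cdk6, a kinase that D cyclins activate, was higher by 1.19. Both exceeded TE in every TM library, while Ccne1 (-0.63) and Ccne2 (-0.72), of the step into S phase, were lower. Cdkn1a (p21), the inhibitor of cyclin-dependent kinases that p53 induces, was lower in TM, at 40.7, 39.8, 43.1 and 47.7 CPM in TE and 2.28, 1.48, 2.16 and 1.85 CPM in TM, and Cdkn1b (p27) was lower at -0.50. Among genes linked to quiescence, 11 of 28 tested members were higher in TM and 10 lower, with a median log2 difference of -0.02, close to the background. Klf4 was higher by 2.20, Klf3 by 1.73 and Btg1, an anti-proliferative mRNA decay factor, by 0.87, while Ddit4, an inhibitor of mTORC1, was lower at -2.51.

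Promoters of 5 of these cell cycle genes are printed because the genes moved together and the motifs known from their periodic control can be seen in them. They are 160 bases up to the annotated start, 5′ to 3′ on the strand of the gene, from RefSeq (GRCm38.p6), and were picked after the values were seen from genes with a match in this stretch. Capitals mark TTTGAA, the core of the cell cycle homology region, in Cdk1 at chr10:69352913-69353072 (minus strand), Cdc20 at chr4:118437344-118437503 (minus strand) and Top2a at chr11:99024190-99024349 (minus strand), and TTTCCCGC or TTTGGCGC, E2F sites, in Mcm6 at chr1:128359706-128359865 (minus strand) and Cdc6 at chr11:98907991-98908150 (plus strand), on either strand.
Cdk1: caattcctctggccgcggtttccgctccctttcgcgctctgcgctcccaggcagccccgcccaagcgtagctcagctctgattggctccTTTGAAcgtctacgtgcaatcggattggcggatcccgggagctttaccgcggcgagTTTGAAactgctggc
Cdc20: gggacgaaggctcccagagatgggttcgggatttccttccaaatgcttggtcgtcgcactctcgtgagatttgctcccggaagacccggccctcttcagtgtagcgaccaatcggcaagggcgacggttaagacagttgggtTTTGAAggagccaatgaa
Top2a: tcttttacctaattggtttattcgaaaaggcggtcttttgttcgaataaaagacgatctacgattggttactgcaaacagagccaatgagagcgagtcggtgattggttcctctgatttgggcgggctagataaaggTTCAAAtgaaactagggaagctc
Mcm6: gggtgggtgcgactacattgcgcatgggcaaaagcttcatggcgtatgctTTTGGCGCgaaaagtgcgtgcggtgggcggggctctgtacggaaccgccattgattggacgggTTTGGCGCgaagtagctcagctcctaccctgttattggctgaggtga
Cdc6: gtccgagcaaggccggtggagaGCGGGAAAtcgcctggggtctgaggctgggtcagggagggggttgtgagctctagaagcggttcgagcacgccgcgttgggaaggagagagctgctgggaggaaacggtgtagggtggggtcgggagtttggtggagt
The match nearest to the start lay 15 bases before it in Cdk1, 18 in Cdc20 and 23 in Top2a. In the full windows of 250 bases before to 50 after the start, TTTGAA was present for 24 of 32 mitosis genes with a promoter in the table, against 14.8% of the 10410 tested genes with one and 17.9% of all 32851 promoters. The E2F letters were present for 12 of 35 replication genes, against 3.42% and 1.56%. A match describes letters and is not a site or a cause. Cdk1 itself was lower in TM at -0.95, Cdc20 at -1.01, Top2a at -0.45, Mcm6 at -0.51 and Cdc6 at -0.83.

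Genes of glycolysis were lower in TM from glucose uptake to lactate export. Of the list, 0 of 25 tested members were higher in TM and 23 lower, with a median log2 difference of -1.90. By DESeq2, limma and an unadjusted p the number higher was 0 as well. Ldha, lactate dehydrogenase A, had 2329, 2471, 2422 and 2225 CPM in TE and 559, 489, 599 and 655 CPM in TM. Slc16a3 (MCT4), which exports lactate, had 89.6, 100.1, 117 and 89.6 CPM in TE and 3.21, 2.52, 3.68 and 7.84 CPM in TM. Tpi1, triose phosphate isomerase, had 1031, 1142, 1185 and 1041 CPM in TE and 111, 88.9, 119 and 146 CPM in TM. No TM library came near the lowest TE library, and the fitted levels were 4.10-fold, 22.9-fold and 9.48-fold higher in TE. Hk2, the inducible hexokinase, had 96.7, 93.7, 111 and 80.3 CPM in TE and 16.5, 15.7, 16.9 and 23.6 CPM in TM, and Slc2a1 (GLUT1), the glucose transporter, had 102, 108, 116 and 89.9 CPM in TE and 22.9, 20.7, 21.9 and 28.6 CPM in TM. The 2 members not called were Eno2 (0.26) and Eno3 (-0.04), the enolases of neurons and muscle. Slc16a1 (MCT1) was the least different of the called members (-0.27), and the difference between MCT4 and MCT1 within the lactate transporters was -4.52 against -0.27.

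Targets of the hypoxia-inducible factors, which share Ldha and Slc2a1 with the glycolysis list, were lower as well: 1 of 20 tested members were higher in TM and 19 lower, with a median log2 difference of -1.94. Bnip3, a mitophagy receptor, had 260.2, 254, 291 and 219 CPM in TE and 10.4, 11.3, 11.1 and 11.9 CPM in TM. P4ha2, a collagen prolyl hydroxylase, had 20.6, 16.9, 25.4 and 13.99 CPM in TE and 0.250, 0.370, 0.428 and 0.684 CPM in TM. Vegfa, the endothelial growth factor, had 20.8, 19.4, 26.5 and 15.3 CPM in TE and 0.905, 0.796, 0.958 and 1.57 CPM in TM. All 3 were far lower in every TM library, with fitted log2 differences of -4.52, -5.47 and -4.27. Of the factors themselves, Epas1 (HIF-2α) was 10.4-fold higher in TE and Hif1a 2.28-fold higher, while Arnt, their shared partner, was the single higher member (0.19). Within groups the libraries were not level: TE 3 was the highest TE library for 14 of 20 hypoxia genes and TE 4 the lowest for 17, and among glycolysis genes TM 12 was the highest TM library for 23 of 25. For Bnip3, P4ha2, Vegfa, Ldha, Slc16a3, Tpi1, Hk2 and Slc2a1 the groups did not overlap despite these spreads.

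Promoters of 4 genes of these lists are shown for the core of the hypoxia response element, ACGTG, in capitals on either strand (CACGT is its reverse). They are the 160 bases before the start in RefSeq (GRCm38.p6), chosen as above, at chrX:106186940-106187099 (plus strand) for Pgk1, chr7:46845644-46845803 (plus strand) for Ldha, chr11:120948907-120949066 (plus strand) for Slc16a3 and chr7:138909507-138909666 (minus strand) for Bnip3.
Pgk1: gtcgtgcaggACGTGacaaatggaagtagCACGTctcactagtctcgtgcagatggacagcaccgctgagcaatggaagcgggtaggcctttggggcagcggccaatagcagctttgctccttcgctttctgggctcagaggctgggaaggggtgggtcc
Ldha: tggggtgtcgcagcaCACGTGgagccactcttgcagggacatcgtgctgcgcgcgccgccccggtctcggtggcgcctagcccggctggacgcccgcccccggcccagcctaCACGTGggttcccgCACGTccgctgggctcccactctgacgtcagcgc
Slc16a3: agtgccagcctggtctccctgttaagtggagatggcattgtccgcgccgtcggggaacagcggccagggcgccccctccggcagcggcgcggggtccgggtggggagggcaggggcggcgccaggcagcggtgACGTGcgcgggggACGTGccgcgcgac
Bnip3: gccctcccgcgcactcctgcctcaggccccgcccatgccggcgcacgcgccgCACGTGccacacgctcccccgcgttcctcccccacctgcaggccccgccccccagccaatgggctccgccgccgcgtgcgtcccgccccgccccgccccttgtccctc
In Pgk1 the matches lay 150 and 131 bases before the start, in Slc16a3 27 and 14, and in Bnip3 108. The letters were present in the full window of 15 of 24 glycolysis genes and 12 of 16 hypoxia genes, against 29.1% of tested genes and 19.6% of all promoters. ACGTG is also contained in the E-box CACGTG, to which MYC binds, and 4 of the 24 glycolysis windows held that longer form, against 11.5% of tested genes. Pgk1, phosphoglycerate kinase, was 5.34-fold higher in TE.

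**Figure D3:**
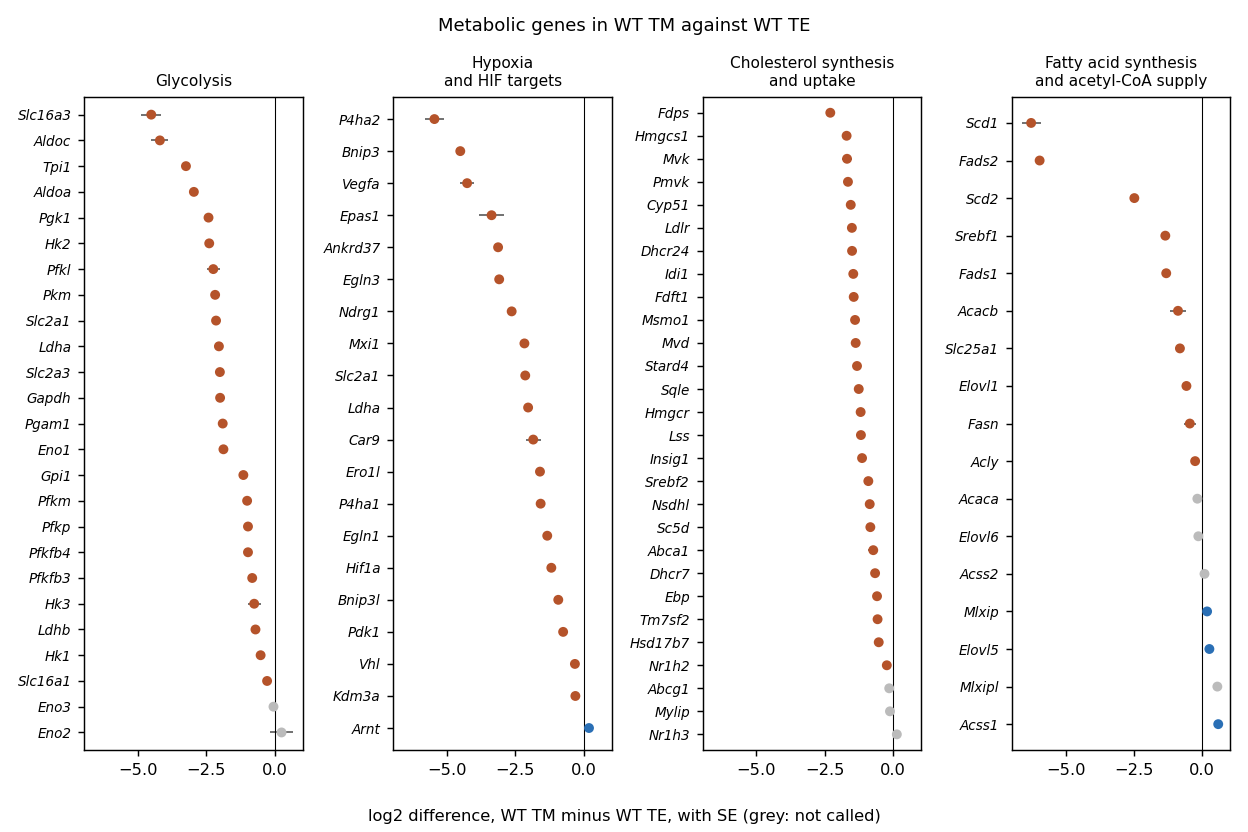
Log2 difference (TM minus TE, with SE) of each tested member of 4 metabolic lists, blue for called higher in TM, brown for called lower and grey for not called. Nearly all members of glycolysis, hypoxia targets and cholesterol synthesis lie left of 0, with Slc16a3, P4ha2 and Fdps the lowest of their lists.

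Where pyruvate enters mitochondria, the differences were small and in both directions. Of the pyruvate dehydrogenase complex and its regulators, 6 of 13 tested members were higher in TM and 6 lower, with a median log2 difference of -0.04. Pdha1, the E1α subunit deleted in the other genotype of the series, had 161, 161, 162 and 160.1 CPM in TE and 169, 169, 179 and 194 CPM in TM in these wild-type cells. It was called at a log2 difference of only 0.14, and not without TM 12 (edgeR adjusted p = 0.073). Among the kinases that inhibit the complex, Pdk1, itself a hypoxia target, was lower at -0.75 and Pdk3 at -0.49, while Pdk2 was higher, at 1.89, 2.03, 2.60 and 1.68 CPM in TE and 3.73, 4.70, 4.65 and 5.35 CPM in TM. Pdp1, a phosphatase that reactivates the complex, was higher by 0.60 and Pdp2 lower at -0.43. The 2 subunits of the pyruvate carrier also split, with Mpc1 at -0.46 and Mpc2 at 0.26, although the libraries of the groups overlapped for Mpc2. Pdhb, the E1β subunit, was higher like Pdha1, by 0.13, but not called with no filter on low counts or without TE 3, TE 4, TM 10 or TM 11. Dlat (-0.15) and Pdhx (-0.20), of the core of the complex, were both lower, and neither was called with library totals alone.

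In the tricarboxylic acid cycle, 3 of 23 tested members were higher in TM and 15 lower, with a median log2 difference of -0.39, and 1 higher without TM 12. Idh1, the cytosolic isocitrate dehydrogenase, was lower at -1.73 and Idh2, the mitochondrial one, higher by 0.23, though not without TM 12 (edgeR adjusted p = 0.055). Pcx, pyruvate carboxylase, which refills oxaloacetate, had 8.34, 11.3, 9.54 and 8.68 CPM in TE and 1.81, 1.59, 1.42 and 2.29 CPM in TM. For fatty acid oxidation, 5 of 27 tested members were higher in TM and 13 lower, with a median log2 difference of -0.20. Cpt1a, the carnitine transferase that admits fatty acids to mitochondria, had 90.4, 91.2, 94.5 and 104 CPM in TE and 117, 113, 96.4 and 104 CPM in TM, and was not called, with a log2 difference of 0.18 (SE 0.08), but was without TE 4 or TM 11 (edgeR adjusted p = 0.039 and 0.031). Ppargc1b, a coactivator of mitochondrial genes, was higher by 1.39, and Fabp5, a fatty acid binding protein, lower at -1.13. Among genes of fatty acid synthesis and acetyl-CoA supply, 3 of 17 tested members were higher in TM and 10 lower, with a median log2 difference of -0.45. Scd1, the stearoyl-CoA desaturase, had 122, 126, 154 and 172 CPM in TE and 1.36, 3.44, 1.39 and 1.38 CPM in TM, and Fads2, a desaturase of polyunsaturated fatty acids, had 117, 119.6, 123.01 and 145 CPM in TE and 2.34, 1.80, 1.88 and 2.09 CPM in TM. These desaturases stood far apart between the groups, whereas Fasn, which builds the chain, was lower at -0.45 (edgeR adjusted p = 0.079 without TM 10 and 0.072 without TM 11), and Acaca, which supplies malonyl-CoA, was not called (-0.17), though it was without TM 12 (edgeR adjusted p = 0.034). Acss1, the mitochondrial acetyl-CoA synthetase that uses acetate, was higher by 0.59.

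The cholesterol pathway was lower along its length: 0 of 28 tested members were higher in TM and 25 lower, with a median log2 difference of -1.18. Its 0 higher members were also 0 by DESeq2, limma and an unadjusted p. Fdps, farnesyl diphosphate synthase, had 234, 241, 233 and 269 CPM in TE and 53.8, 46.9, 52.3 and 46.2 CPM in TM. Hmgcs1, which makes HMG-CoA, had 345, 356, 344 and 398 CPM in TE and 112, 99.0, 107 and 127 CPM in TM. TE libraries were above TM libraries in both. The 3 tested members not called were Abcg1, a sterol exporter (-0.14), Mylip, a ubiquitin ligase that is induced by LXR (-0.11), and Nr1h3, encoding LXRα (0.14). Abcg1 was called without TM 12 (edgeR adjusted p = 0.0090). Promoters of 2 pathway genes, Idi1 at chr13:8885446-8885605 (plus strand) and Mvd at chr8:122443423-122443582 (minus strand), are shown with CCAAT, the box bound by NF-Y, in capitals on either strand.
Idi1: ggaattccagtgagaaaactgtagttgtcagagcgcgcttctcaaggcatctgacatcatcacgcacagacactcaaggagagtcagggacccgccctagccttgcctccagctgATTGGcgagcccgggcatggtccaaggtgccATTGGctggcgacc
Mvd: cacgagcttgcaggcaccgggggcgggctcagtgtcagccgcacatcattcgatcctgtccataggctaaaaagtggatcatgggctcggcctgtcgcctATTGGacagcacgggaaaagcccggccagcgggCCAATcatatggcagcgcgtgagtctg
CCAAT was found in the windows of 17 of 20 pathway genes with a promoter, against 4481 of 10410 tested genes and 37.4% of all promoters, and in 25 of 32 mitosis genes. The sterol element TCACNCCAC was found in 1 of the 20, against 1.40% of tested genes. Idi1, the isomerase before Fdps, was lower at -1.45 and Mvd, the decarboxylase before Idi1, at -1.36.

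Genes that supply amino acids were lower in part. Of amino acid transporters and ATF4 targets, 3 of 29 tested members were higher in TM and 18 lower, with a median log2 difference of -0.55. Pycr1, the last step of proline synthesis, had 2.26, 2.21, 2.38 and 2.04 CPM in TE and 0.187, 0.204, 0.222 and 0.150 CPM in TM, Slc1a4, a carrier of neutral amino acids, was lower at -2.49 and Trib3, a feedback inhibitor of ATF4, at -2.07. Eif4ebp1, a repressor of translation, was lower at -1.93. TM libraries lay below every TE library for each of these. Slc7a5, which carries large neutral amino acids, differed less (-0.65), and Slc43a1 was higher (1.05). In the unfolded protein response 2 of 22 tested members were higher in TM and 13 lower, with a median log2 difference of -0.28, and Eif2ak3 (PERK) was the lowest (-1.45). Cytosolic tRNA synthetases had 13 of 20 members lower and 2 higher (median -0.35), or 1 higher without TE 1 or TE 3, and heat shock genes 6 of 10 lower and 1 higher, or 0 higher without TE 1, TE 2, TE 3, TM 9, TM 10 or TM 11 (median -0.33), with Hsp90ab1, a cytosolic chaperone, at -0.82.

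Genes for ribosome production went the other way from glycolysis and the cell cycle. Of MYC and the ribosome biogenesis list, 27 of 40 tested members were higher in TM and 5 lower, with a median log2 difference of 0.38. Among the TM libraries, TM 12 was the highest for 26 of the 40 and TM 10 the lowest for 18. Gnl3 (nucleostemin), of the nucleolus, had 57.2, 57.6, 47.6 and 49.4 CPM in TE and 153, 154, 152 and 141 CPM in TM. Polr1b, a subunit of RNA polymerase I, had 25.5, 24.9, 23.7 and 21.1 CPM in TE and 48.9, 46.9, 44.6 and 52.1 CPM in TM, and Rrp12 was higher by 0.98. TM libraries exceeded all TE libraries for these genes, as for Myc above. The lower members included Mycn, at 6.36, 6.62, 5.45 and 4.90 CPM in TE and 0.359, 0.407, 0.376 and 0.467 CPM in TM, and Npm1, nucleophosmin (-0.47). MYC and its relative MYCN thus lay in opposite directions. The E-box CACGTG was present in 9 of 33 windows of this list, against 11.5% of tested genes.

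Proteins of the respiratory chain and of ribosomes are made from short transcripts, and the difference between the groups changed with transcript length across all genes. The median log2 difference went from -0.145 among the shortest of 10 equal groups of genes (median transcript of 636 bases) to 0.247 among the longest (median of 6108 bases), and from 0.206 to -0.165 from the lowest to the highest of 10 groups by GC content. The lists that follow are therefore each given with their median after a smooth trend on length was subtracted. Nuclear subunits of oxidative phosphorylation had 69 of 78 tested members lower and 0 higher, also 0 by DESeq2, limma and an unadjusted p but 2 where libraries were scaled by their totals alone, with a median of -0.54 and, after the trend, -0.46. Cox7a1, a subunit of complex IV, had 1.92, 1.54, 1.82 and 1.82 CPM in TE and 0.203, 0.222, 0.205 and 0.1001 CPM in TM, and Uqcr11, of complex III, was lower at -1.47. The 13 respiratory genes of the mitochondrial genome showed no shared direction: 3 were higher and 2 lower, with a median of 0.0043 and, after the trend, 0.11. With the 8 WT libraries alone 5 were lower, and with library totals alone or without TE 1, TE 3, TM 10 or TM 12 only 1 was. TM 12 was the lowest TM library for 13 of 13, and mt-Co1 was not called (0.06). Mitochondrial genes as a whole took 2.76 to 3.19% of counts.

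Cytosolic ribosomal protein genes had 5 of 83 members higher and 30 lower, the latter near the 34.3% of all genes, with a median of -0.13 that became -0.03 after the trend. TM 11 was the highest TM library for 82 of the 83, TM 12 was the lowest for 61, and without TM 12 the number called higher was 12. Mitochondrial ribosomal proteins had 51 of 78 members lower and 9 higher, with a median of -0.30 before and -0.20 after. For the proteasome 32 of 37 were lower and 0 higher, by the other tests too, with a median of -0.45 before and -0.41 after. Psmb8, a subunit of the immunoproteasome, was lower at -0.72, and Psmb2, of the constitutive core, at -0.74. Of these lists, the medians of nuclear oxidative phosphorylation subunits, mitochondrial ribosomal proteins and the proteasome stayed below 0 after the length trend was taken off. That of cytosolic ribosomal proteins was close to 0. The trend on GC content was not subtracted from any of them.

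**Figure D4:**
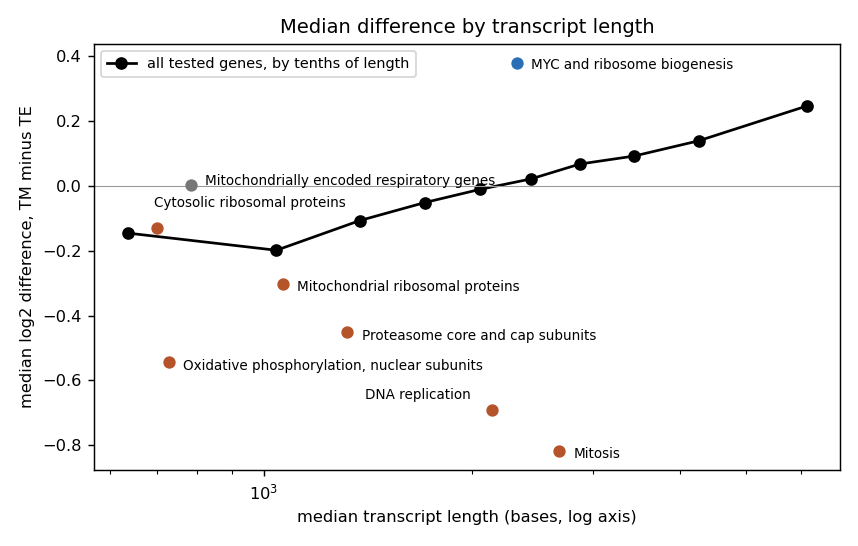
Median log2 difference (TM minus TE) against median transcript length (bases, log axis) for all tested genes in 10 groups by length (black line) and for 8 lists (coloured points). The line rises from -0.145 to 0.247, and oxidative phosphorylation, the proteasome, mitosis and DNA replication lie below it.

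Interferon-stimulated genes were nearer to the background: 11 of 30 tested members were higher in TM and 6 lower, with a median log2 difference of 0.18. Usp18, which limits interferon signalling, was higher by 0.74 (edgeR adjusted p = 0.053 without TM 9) and Ifit1 by 0.65, while Mx1 was lower at -0.95. Genes induced by interferon-gamma had 5 of 22 members higher and 9 lower, and of MHC class I and antigen processing 4 of 18 tested members were higher in TM and 10 lower, with a median log2 difference of -0.26. Tap1, of the peptide transporter, was lower at -0.76, and Erap1, which trims peptides, was higher by 0.46. No member of the class I list differed by more than 1 on the log2 scale.

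All 15 tested BCL2 family genes were called, although the calls of Bcl2l2, Bik and Bmf were lost without some single libraries. The 3 main anti-apoptotic members were higher in TM, Bcl2 as given above, Bcl2l1 (BCL-XL) by 0.81 and Mcl1 by 0.79. The pro-apoptotic Bbc3 (PUMA) had 2.73, 2.79, 4.25 and 2.88 CPM in TE and 0.593, 0.4998, 0.616 and 0.751 CPM in TM, and Bak1 (-0.92), Bax (-0.63) and Bcl2l11 (BIM, -0.60) were also lower. Bcl2a1b, an anti-apoptotic relative that activation induces, was lower (-1.77), and Bid, which links death receptors to mitochondria, was higher (0.36). Counts for the family were 5 higher and 10 lower, so that direction followed neither function without exception.

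Enzymes that add or remove acetyl groups on histones split evenly: 12 of 29 tested members were higher in TM and 13 lower, with a median log2 difference of 0.06, a median that became -0.03 after the length trend. Kat2a (GCN5), an acetyltransferase, was higher by 0.70 and Hdac5, a class IIa deacetylase, was lower at -1.33. Genes of mitochondrial dynamics and biogenesis had 4 of 17 members higher and 3 lower. With library totals alone 8 were higher and 1 lower, and with a minimum mean of 1 CPM 7 were higher. Lysosome and autophagy genes had 14 of 27 lower and 4 higher, among them the cysteine protease gene Ctss, which was 2.46-fold higher. Of the GIMAP family of lymphocyte GTPases 5 of 8 were lower and 1 higher, or 0 higher without TE 2, TE 4 or TM 11.

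Purine receptors and enzymes lay on both sides: 4 of 13 tested members were higher in TM and 8 lower, with a median log2 difference of -0.77. P2rx7, the ATP-gated channel, had 0.890, 0.406, 0.288 and 0.346 CPM in TE and 1.67, 0.777, 1.78 and 2.02 CPM in TM, with TM 10 inside the TE range. Art2b, an ADP-ribosyltransferase that can activate it from NAD, was 5.18-fold higher and Nt5e (CD73), which makes adenosine from AMP, 2.32-fold higher. Entpd1 (CD39), which makes that AMP, and the adenosine receptor gene Adora2a (-1.01) were lower. P2ry14, a receptor for UDP-glucose, had 45.3, 46.7, 42.4 and 53.1 CPM in TE and 1.53, 1.43, 1.76 and 1.85 CPM in TM. Among genes of helper and regulatory lineages 1 of 10 tested members was higher in TM and 6 lower, with a median log2 difference of -1.23. Gata3 was lower at -1.51 and Zbtb7b (ThPOK), the factor of CD4 cells, at -1.79, while Foxp3 was not called (0.92).

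**Figure D5:**
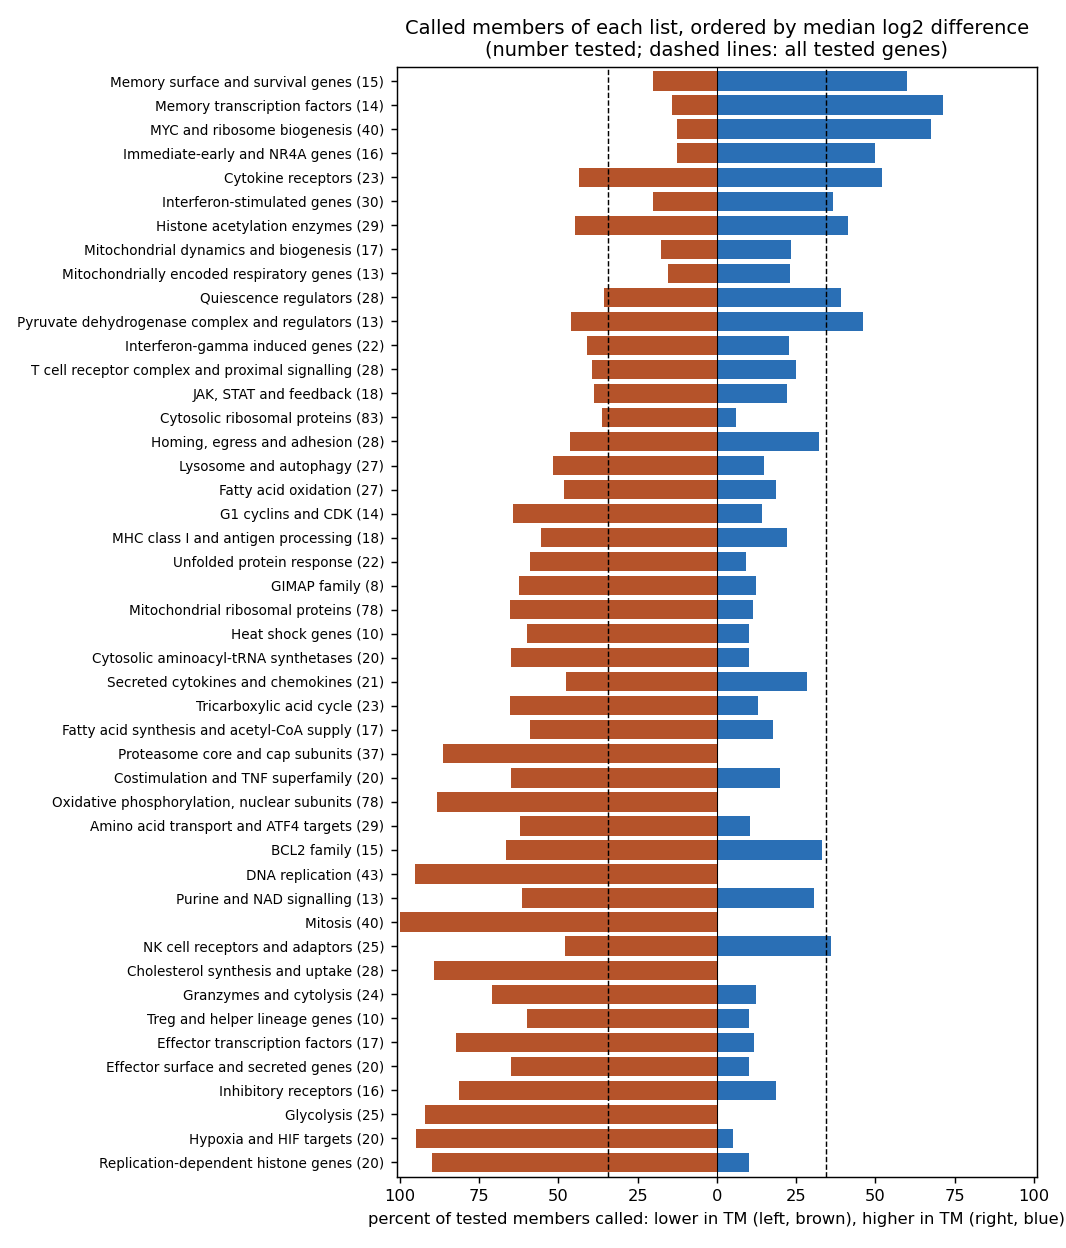
Percent of tested members of each of 46 lists called lower in TM (left, brown) and higher in TM (right, blue), ordered by median log2 difference, with the number tested in brackets and dashed lines at 34.3% for all tested genes. Histone genes, hypoxia targets and glycolysis stand at one end, and memory surface and transcription factor genes with MYC and ribosome biogenesis at the other.

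The largest differences over all genes, apart from those given above, were in genes of many kinds. Higher in TM, Kirrel, an adhesion molecule of the kidney filter, had 609 counts over the TM libraries and 1 over TE, a ratio of 671 with a 95% counting interval of 120 to 26558. Its fitted log2 difference went from 8.73 to 10.31 without TE 2, the library with that count. Drc1, a part of the dynein regulatory complex of cilia, had 4.50, 5.88, 5.26 and 5.73 CPM in TE and 151, 158, 155 and 138 CPM in TM. Dyrk4, a protein kinase, was 22.1-fold higher, and Gucy1a1 and Gucy1b1, the 2 subunits of soluble guanylate cyclase, the receptor for nitric oxide, were 19.1-fold and 12.7-fold higher. Both subunits of the cyclase therefore moved together. Itgae, Il6ra and Tnfrsf11a, described above, were in the same set, as was Plaur, the urokinase receptor, at 0.0937, 0.211, 0.272 and 0.502 CPM in TE and 2.98, 3.30, 2.31 and 4.32 CPM in TM. On the lower side Gja5, a connexin, had 841 counts in TE and 0 in TM, at least 254-fold higher in TE. Smtnl2 had 1269 counts in TE and 2 in TM, a ratio of 576 with a 95% interval of 159 to 4758. Vldlr, a lipoprotein receptor, had 8.54, 9.04, 12.2 and 4.35 CPM in TE and 0, 0, 0.0685 and 0 CPM in TM, Ak4, a mitochondrial adenylate kinase, 59.4, 57.1, 61.6 and 53.8 CPM in TE and 0.140, 0.241, 0.376 and 0.734 CPM in TM, and Ltb4r1, the receptor for leukotriene B4, 11.1, 8.69, 14.5 and 12.1 CPM in TE and 0.0624, 0.0740, 0.0856 and 0.1001 CPM in TM. These transcripts were near 0 in every TM library, and for Vldlr the log2 difference went from -8.82 to -12.04 without TM 11. Ifitm2, an interferon-induced membrane protein, had 314, 299, 316 and 341 CPM in TE and 2.03, 2.15, 2.36 and 1.52 CPM in TM. Counting intervals cover counting error only.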

How the data were processed

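RNA was selected on poly(A) and sequenced as pairs of 150 bases on a NovaSeq instrument, with a kit that keeps no strand. Per the submitters' processing notes, STAR 2.7.6a, RSEM 1.3.3 and DESeq2 were used with mm10. The release of the annotation was not given in the sources used here. The authors deposited for each library a table of expected counts, which were rounded here and tested, TPM, which were used for levels of marker sums, and FPKM, which were not used here. Gene names came from GENCODE M21 (55141 of 55401 identifiers matched).

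Genes passed edgeR's filterByExpr (minimum count 10, minimum total 15) over the 16 libraries. A quasi-likelihood model with TMM factors was fitted to all 4 groups, which share 1 estimate of the spread (biological coefficient of variation 0.104), and WT TM was compared with WT TE with Benjamini-Hochberg adjustment over 15277 genes (R 4.3.3, edgeR 4.0.16). Depth was 53007257 to 67294571 expected counts per library. Alternatives used limma 3.58.1, DESeq2 1.42.0, other scalings, other filters and the omission of each library. On simulated counts for 15001 genes, the test called 92 of the 100 changed by 2-fold, 97 of the 100 changed by 4-fold and, among its 197 calls, 8 unchanged genes. No other genes were changed, as many went up as down, and counts were drawn with the fitted spreads. In the data 68.6% of genes were called, so the simulation does not show how scaling and error rates hold under differences that wide. Python 3.11.15, scipy 1.17.1 and matplotlib 3.10.9 served for sums, exact tests and plots. Promoters were searched in RefSeq windows of GRCm38.p6.

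The comparison and the gene lists were chosen with earlier results of these data known. Genes were named by rule: up to 15 per direction with the largest differences (at least 1 CPM in the higher group, groups apart), up to 4 per direction in each list, a set of anchor genes, and all members of lists of 16 or fewer. Some of the genes this rule names are not reported here. Other genes in the text (Abcg1, Adgre1, Cd2, Cd68, Cd74, Cd79b, Cdc20, Cdc6, Cdk1, Csf1r, Cst7, Ebf1, Eno2, Eno3, Gzme, Gzmg, H2-Ab1, Hif1a, Idi1, Ifitm1, Ifitm10, Ifitm3, Ighm, Jak1, Lamp1, Lyz2, Mcm6, Ms4a1, Mt1, Mt2, Mvd, Mylip, Nr1h3, P2ry12, P2ry13, Pax5, Pgk1, Slc16a1, Stat5b, Top2a, Trac, Trbv12-1, Trdc and Unc13d) were chosen after their values were seen. Of the 259 tested genes named, 76 share exonic bases with another annotated gene, and their counts are less certain: Acss1, Bach2, Bak1, Bax, Bcl2, Bcl2a1b, Bcl2l2, Bcl6, Bid, Bnip3, Ccnd2, Ccne2, Cd27, Cd7, Cd74, Cdc20, Cdk6, Cdkn1a, Cish, Csf1r, Csf2, Ctsw, Cxcr5, Eif2ak3, Eomes, Erap1, Fdps, Flt3l, Foxo1, Foxp3, Gata3, Gja5, Gnl3, Gucy1a1, Hdac5, Hif1a, Hmgcs1, Idi1, Ifitm10, Ifitm2, Ifng, Ikzf2, Il12rb2, Il27ra, Il2rg, Il6ra, Itga4, Jak1, Jak3, Jun, Klf3, Lamp1, Lef1, Maf, Mpc1, Mt2, Nr1h3, P2rx7, P2ry12, Pax5, Pdha1, Pim1, Psmb8, Slc2a1, Spp1, Stat5a, Tap1, Tk1, Top2a, Tpi1, Trdc, Usp18, Xcl1, Zbtb7b, Zeb2 and mt-Co1. Copies of near-identical sequence (Gzmd to Gzmg, Klra, Ifitm, H2-Q and histone genes) are uncertain too. Histone mRNAs mostly lack poly(A) tails.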

Additional observations from a re-analysis of the deposited data

Results flagged for a closer look

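In 37 of 552 groups of 4 libraries (6.7%), the highest or lowest library lay apart from the other 3 by Dixon's criterion, where chance alone gives about 1 group in 20. TM library 12 accounted for 11 of them. TM 12 lay above the other TM libraries for Abcg1 (92.0 CPM), Ccnd2 (704 CPM), Hk2 (23.6 CPM), Il6st (189.7 CPM), Jak3 (90.1 CPM), Lyst (623 CPM), Stat5a (56.01 CPM) and Unc13d (117 CPM) and below the other TM libraries for Cox7a1 (0.1001 CPM), Gnl3 (141 CPM) and Mpc2 (12.6 CPM). TM 9 lay above the other TM libraries for Cdt1 (16.9 CPM), Egr2 (4.29 CPM) and Trbv12-1 (498 CPM) and below the other TM libraries for Ctla4 (107 CPM). TM 10 lay above the other TM libraries for Pax5 (3.24 CPM) and Scd1 (3.44 CPM) and below the other TM libraries for Cxcr3 (107 CPM). TM 11 lay above the other TM libraries for Mt2 (0.667 CPM). TE 1 lay above the other TE libraries for Il15ra (11.7 CPM), Trbv12-1 (392 CPM) and Trdc (119 CPM) and below the other TE libraries for Bcl2l1 (29.4 CPM) and Fasn (198 CPM). TE 2 lay above the other TE libraries for Bcl2l11 (228 CPM) and Cish (99.9 CPM). TE 3 lay above the other TE libraries for Bbc3 (4.25 CPM) and Pim2 (126 CPM) and below the other TE libraries for Gzmm (3.10 CPM) and Mcm6 (432 CPM). TE 4 lay above the other TE libraries for Aurka (102 CPM), Klrg1 (0.294 CPM), Mki67 (2277 CPM) and Pdp2 (39.8 CPM) and below the other TE libraries for Lag3 (69.2 CPM). In TE 1, the summed CD8 T cell markers stood at 6110 TPM and the share of Trav14 among Trav counts at 69.7%, both above TE 2 to 4. Without TM 12, the library with the most such values, 10481 genes were called, against 10479 with it, and 9901 genes were called in both fits.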

How the results depend on the processing

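The number of genes called was 10220 with only the 8 WT libraries in the fit, 10469 with RLE size factors, 10558 with library totals alone, 10548 with no filter on low counts, 8897 with a minimum mean of 1 CPM, 10522 with limma and 10470 with DESeq2 (3 adjusted p missing), and 0 genes called in both changed direction in any of these. Library totals alone shifted the median log2 difference by 0.0841 and gave 6015 higher and 4543 lower. With the minimum mean of 1 CPM, 842 genes were higher and 1074 lower by more than 1 on the log2 scale, against 1441 and 1722, and 11973 genes were tested. Leaving out 1 library gave 9972 to 10481 genes called, 4872 to 5107 higher, 4989 to 5374 lower, 1371 to 1479 higher by more than 1 and 1717 to 1807 lower by more than 1. Of 37 list counts of 10 or more, 3 moved by more than 1.5 times: with library totals alone 9 lysosome genes in place of 14 were lower, with the 1 CPM minimum 6 cytokine genes in place of 10, and histone genes lower numbered 29 with no filter and 9 with that minimum, in place of 18. Library totals alone also ended the calls of Dlat, Ighm, Ikzf2, Pdhx, Fasn (edgeR adjusted p = 0.056), Prf1 (0.073) and Slc16a1 (0.052), and made calls of Cpt1a (0.013), Lamp1 (0.0045) and mt-Co1 (0.026). Pdha1 was not called with no filter (0.061), and Cpt1a (0.033) and Foxp3 (0.0038) were called with the 8 WT libraries alone. The cause of these changes was not tested. Summed in CPM in place of TPM, 9 of 14 marker values passed the exact permutation test (adjusted p = 0.044). In either unit, values fully apart had the lowest unadjusted p that this test can give, 0.0286. Their adjusted p was set by how many values shared it and by how many were tested (14 in CPM, 17 in TPM with the shares). The step from 0 to 9 is therefore not a measure of larger differences in CPM. The gamma-delta T cell ratio of TM to TE went from 0.626 to 1.062. That of neutrophil markers went from 0.13 to 0.053 in CPM and to 0.035 without TM 9. Subtracting a smooth trend on transcript length, an alternative chosen after seeing the data, turned the sign of the medians of mitochondrial dynamics (0.06 to -0.04) and histone acetylation (0.06 to -0.03). No paired analysis was run, because no label ties a TE library (1 to 4) to a TM library (9 to 12). TE 1 and TM 9 each had the highest share of Trav14 among Trav counts in their group (69.7% and 65.9%), and the highest Trbv12-1. Whether libraries of the 2 groups share a source, which would leave a pairing unused, was not tested. Depth limits the genes near 0 in a group, for which ratios carry wide counting intervals.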

Other observations

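A few gene groups outside the lists stood out, and they were chosen after their values were seen. The Ifitm genes, whose proteins sit in membranes and restrict viral entry, were lower in TM: Ifitm1 had 1132, 1062, 995 and 1041 CPM in TE and 9.998, 13.2, 8.23 and 5.79 CPM in TM and Ifitm3 had 94.1, 96.2, 85.0 and 92.4 CPM in TE and 1.76, 1.68, 1.92 and 0.834 CPM in TM, beside Ifitm2 in the report. All 4 TE libraries exceeded the TM libraries for both. The genes are close copies of each other, so reads may have been shared among them. Ifitm10 was higher in TM by 1.53. Metallothioneins, small proteins that bind zinc and copper, were lower, with Mt1 at 24.5, 27.0, 35.1 and 22.2 CPM in TE and 0.515, 0.555, 0.958 and 0.634 CPM in TM and Mt2 at 27.7, 33.5, 39.1 and 23.8 CPM in TE and 0.250, 0.315, 0.667 and 0.3003 CPM in TM. The purine receptor genes P2ry12 and P2ry13, relatives of P2ry14, were lower as well, at -5.56 and -5.34.

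Of the 8 markers listed for B cells, 5 were higher in TM, 2 were not called (Cd79b at 0.14 and Ebf1 at 0.47), and Ighm, by far the most abundant, was lower (-0.23), but not called with library totals alone. The higher members were at very low levels. Pax5, the B cell identity factor, had 0.125, 0.260, 0.144 and 0.156 CPM in TE and 1.11, 3.24, 0.907 and 0.951 CPM in TM, and Ms4a1 (CD20) had 0.281, 0.276, 0.208 and 0.139 CPM in TE and 1.34, 3.20, 1.39 and 0.801 CPM in TM. Cd74, the class II invariant chain, which is listed for dendritic cells, where 1 of 5 tested members was higher and 3 lower, had 2.73, 3.38, 1.10 and 1.16 CPM in TE and 7.47, 18.9, 5.84 and 4.57 CPM in TM. TM library 10 was the highest for each, and without it the log2 difference went from 3.16 to 2.52 for Pax5 and from 2.12 to 1.51 for Cd74. The class II gene H2-Ab1, in contrast, was lower in TM, at 12.7, 13.8, 17.0 and 8.52 CPM in TE and 2.12, 3.68, 1.61 and 1.48 CPM in TM. The part of other cells in these values was not tested. Of the OT-I receptor, Trbv12-1 was highest in TE library 1 and in TM library 9, with 392, 184, 185 and 175 CPM in TE and 498, 242, 249.1 and 212 CPM in TM, and it was not called (0.36), but was without TE library 1 (0.72).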
